A study of Homo sapiens with 2 samples.

Results

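The genes described here encode parts of the machinery that moves proteins and membrane between compartments, and were chosen by symbol: coat and adaptor subunits (SEC, COP, AP, CLT), Arf regulators, golgins, tethering complexes (TRAPP, COG, EXOC), VPS and SNX genes, syntaxins, synaptojanins, PICALM and the BEACH proteins. Of the 1658 gene symbols with a peak, 39 matched. The library was RNA recovered with an immunoprecipitation (IP) of catenin from the human cell line MDA-MB-231, which is established from breast cancer, is triple-negative and has a mesenchymal phenotype; the labels name no treatment or genetic change. The series has 1 IP library and 1 input library, and the values below come from a list of enriched regions (peaks) of the IP. With 1 library per group, there was no replicate error and no test across samples. The series title puts the question as a screen for noncoding RNAs that bind catenin, and the genes below are mRNAs found in the same list.

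Proteins made at the endoplasmic reticulum (ER) leave it in vesicles coated with COPII and are returned from the Golgi in vesicles coated with COPI. Arf GTPases recruit coats to the Golgi once an exchange factor has loaded them with GTP, and golgins, long coiled-coil proteins anchored on Golgi membranes, catch incoming vesicles. Clathrin and its adaptors form carriers at the plasma membrane, the trans-Golgi network and endosomes. Tethering complexes then hold a carrier at its target, and SNARE proteins such as the syntaxins fuse the membranes. Catenin reaches the cell surface bound to cadherins, whose delivery and recycling use this machinery.

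Peaks are given in nucleotides (nt) along an Ensembl transcript, as deposited. The file does not say from which end of the transcript the count runs, and the authors' region labels, described below, often run against a count from the 5' end, so nt positions carry no 5' or 3' direction here. The transcript annotation behind the identifiers is not named either, and they look later than hg18, the build in the submitters' notes. For each gene the transcript with the most tags was used, where tags are what the authors counted in a peak, with no further definition in the file. The 39 genes had 50 peaks with 2257 tags, 1.69% of the 133739 tags on all chosen peaks (exact binomial interval 1.62 to 1.76%). Intervals are at 95%, Poisson for tags and Clopper-Pearson for shares. The Poisson intervals cover counting error only, because PCR copies of a molecule cannot be recognised among the tags. The Clopper-Pearson intervals treat genes or tags as independent draws. Genes are not replicates, so these intervals show the size of a group and are no test. The fold enrichment of each peak is the authors' own value and only describes or ranks peaks within this list. Of 12 markers each, 4 mesenchymal or basal, 0 luminal epithelial and 0 immune genes had a peak. The 4 were FN1, EGFR, MSN and ZEB1, and VIM, a defining mesenchymal marker, was not among the listed genes.

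The peak list covered the steps of transport unevenly. In the RefSeq table, 242 protein-coding symbols matched the same rule, and 39 of them had a peak, which is 16.1% (interval 11.7 to 21.4%). Of all 20056 protein-coding symbols 1627 had one, which is 8.11%. With symbols of every gene type in the denominator, pseudogenes included, the shares were 9.47% for the rule and 2.74% for the table. The level of these mRNAs in the input and their length were not used here, so the shares describe the list and were not tested. A gene without a peak may lack expression, tags or enrichment.

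The share was 4 of 12 for the COPII coat and ER exit sites, and 3 of 12 for Arf GTPases and their regulators. It was 6 of 30 for clathrin, adaptors and uncoating factors and 8 of 42 for the tethering complexes. For golgins, taken as all GOLGA and GOLGB symbols, it was 7 of 37. Shares nearer the 8.11% of all protein-coding symbols were found for syntaxins and SNAREs (2 of 19) and for sorting nexins and retromer (2 of 36). The ESCRT, HOPS and remaining VPS genes (1 of 21) were also near it. COPI and the ER translocon each had 1 of 8. Lipid transfer and other genes had 4 of 13. The 4 BEACH protein genes LRBA, NBEA, NBEAL1 and NBEAL2 had none. All these intervals were wide. That of the COPII group ran from 9.92 to 65.1%, that of the tethers from 8.60 to 34.1%. That of the lipid transfer and other genes ran from 9.09 to 61.4%, and the other intervals included 8.11%. Because genes are not replicates, an interval above 8.11% does not set a step apart.

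**Figure D1:**
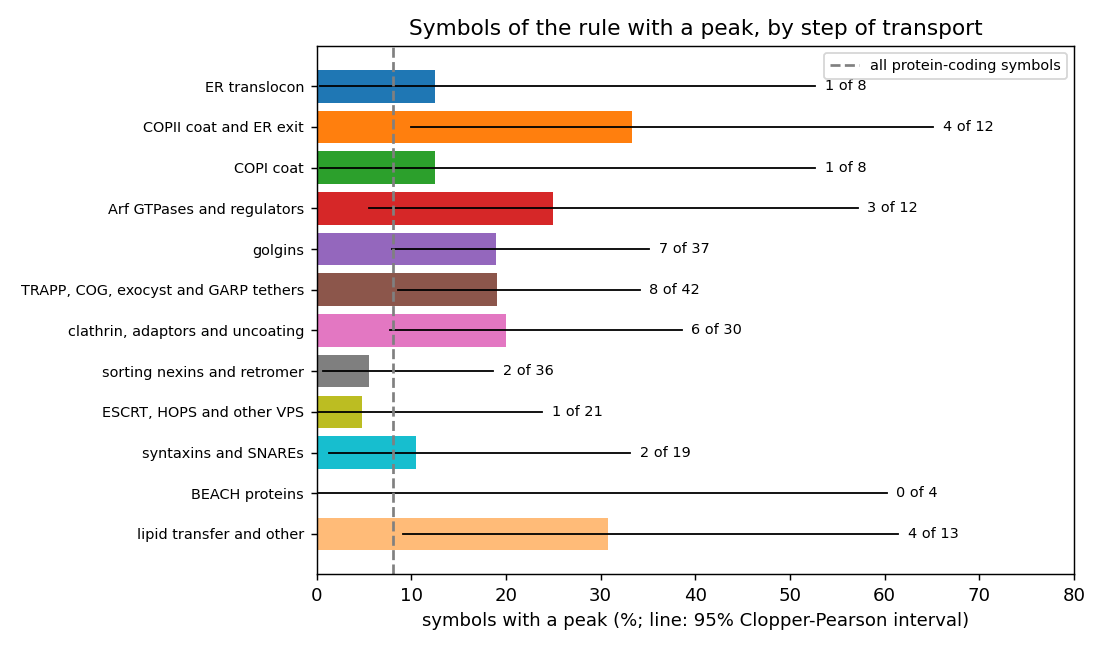
Share of protein-coding symbols of each step of transport that had a peak, in percent, with the 95% Clopper-Pearson interval as a line and the count beside it. The dashed line marks the 8.11% of all protein-coding symbols, and it lies inside all intervals but those of the COPII, tether and lipid transfer groups. Genes are not replicates, so this is no test of a step.

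Within a step, the listed genes can be split by kind. All 3 Arf genes with a peak encode guanine nucleotide exchange factors (ARFGEF1, ARFGEF2 and GBF1), out of 4 in the rule. None of the 5 Arf GTPases and none of the 3 ARFGAP genes was listed. Among tethers, 5 of the 8 core exocyst subunits EXOC1 to EXOC8 had a peak, against 1 of 17 TRAPP, 1 of 8 COG and 1 of 4 GARP symbols. Of the VPS13 lipid transfer proteins 3 of 4 were listed. Of 8 GOLGA and GOLGB symbols outside the GOLGA6 and GOLGA8 copy families, GOLGA7 and GOLGA7B included, 5 had a peak, while the copy families had 0 of 15 and 2 of 14. AP3 had 2 of 7 subunits and AP1 1 of 8, and the 3 AP2 and 4 AP4 subunits covered by the rule had none. Over all protein-coding symbols the share with a peak was 8.11%. In groups this small, a count of 0 or 1 does not set a subgroup apart from that share. The subgroups were formed after the list was seen, so the counts are a description.

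The typical member was a weakly tagged gene. The median over the 39 was 21 tags (quartiles 15.5 and 57), against 41 over all 1658 genes, and 14 of the 39 lay above the latter. Their peaks covered a median of 773 nt, against 1294.5 nt. Per kb of peak the medians were closer, 28.5 tags for members and 29.8 for all genes. The median fold of the highest peak was 6.95 against 7.56. A fold of at least 10 was reached by 10 of the 39 members (25.6%) and by 30.3% of all genes with a peak, so high folds were no more frequent than in the list at large.

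The tags were concentrated in few members. GOLGB1, CLTC, AP3D1, GOLGA4 and GOLGA3 together held 55.7% of all member tags (1257 of 2257). They had 173 to 437 tags each, and no other member exceeded 82. At least 100 tags were reached by these 5 of the 39 members (12.8%, interval 4.30 to 27.4%) and by 354 of all 1658 genes (21.4%). Genes with many tags were therefore no more frequent among members than in the list at large. Most members, 31 of 39, had a single peak, 5 had a pair of peaks and 3 had 3. Among all genes 68.5% had a single peak, against 79.5% of members.

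**Figure D2:**
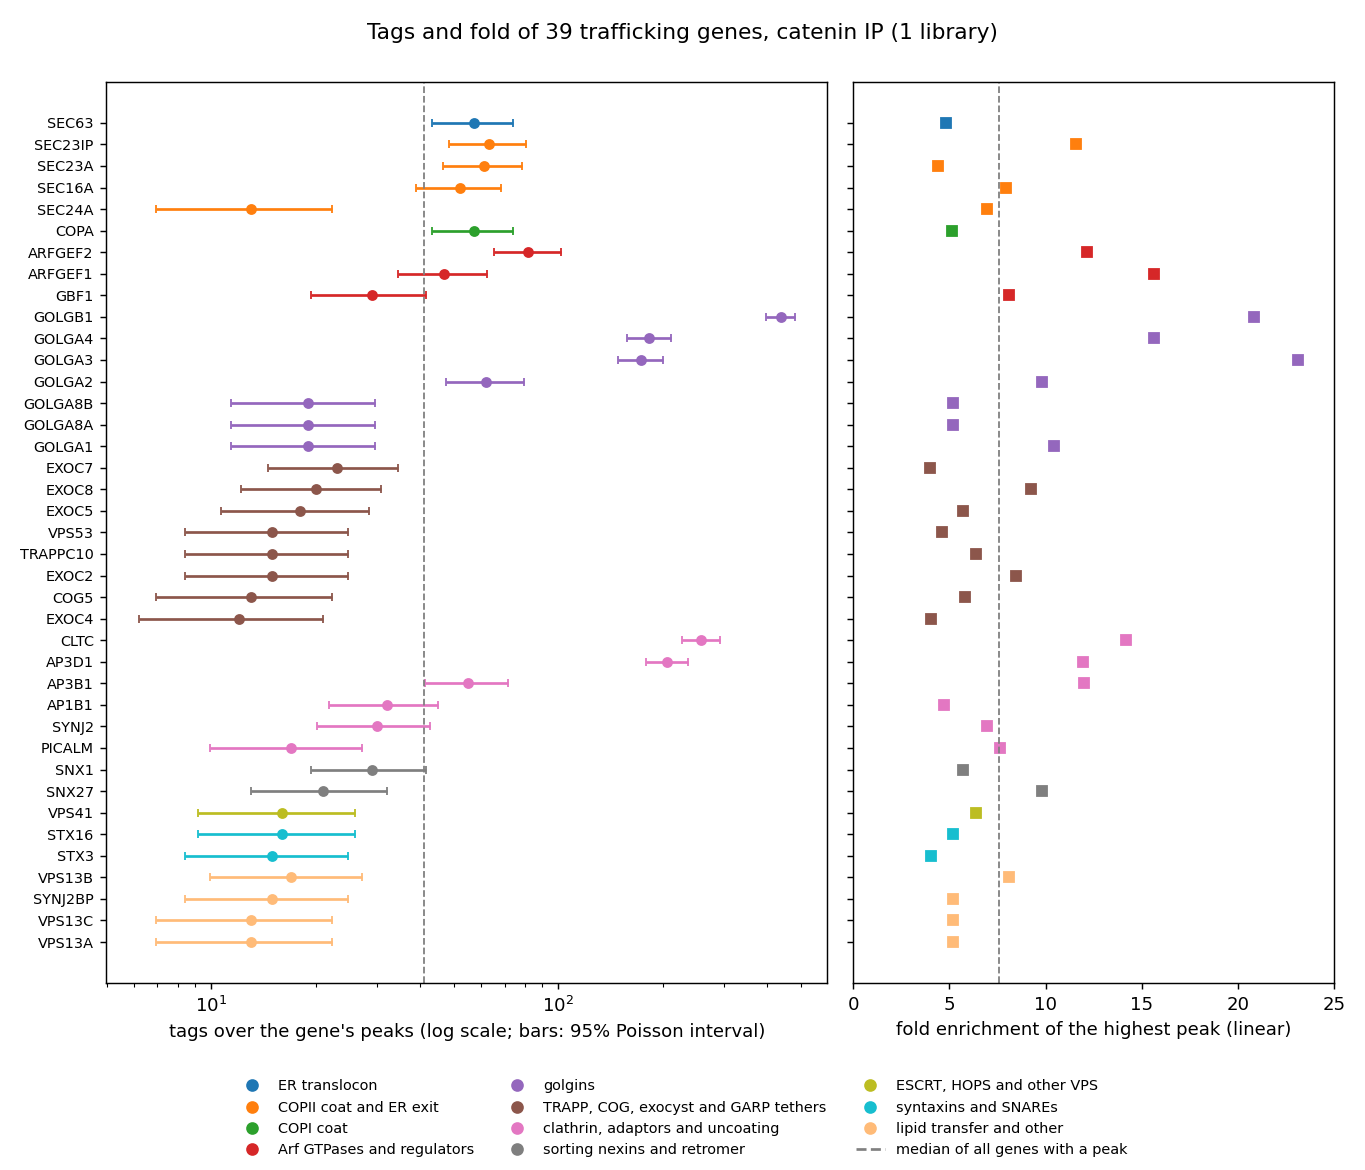
Left, tags over the peaks of each of the 39 genes on a log scale with 95% Poisson intervals; right, the authors' fold of its highest peak on a linear scale; colours give the step of transport and dashed lines the medians of all 1658 genes, 41 tags and a fold of 7.56. The 5 genes from 173 to 437 tags are 3 golgins, CLTC and AP3D1, and the tethers all lie below the dashed line for tags.

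Golgins carried 912 of the 2257 member tags (40.4%), on 20882 of the 58401 nt of member peaks (35.8%). The 19 tags listed equally for GOLGA8A and GOLGA8B were counted for each of them. GOLGB1 encodes giantin, the largest golgin, which is anchored in the Golgi membrane by its C-terminus. It had 437 tags (interval 397 to 480) in 3 peaks of ENST00000614479, ranking 35 of 1658 by tags. Its first peak covered nt 130 to 1143 with 35 tags at a fold of 11. The second, nt 1239 to 3772, held 151 tags at a fold of 14.47, and the third, nt 3881 to 9058, held 251 at a fold of 20.84. Gaps of only 95 and 108 nt separated them, so that peaks covered nearly all of nt 130 to 9058. The density was 59.6 tags per kb in the second peak and 48.5 in the third, but 34.5 in the first.

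GOLGA3 and GOLGA4 followed among golgins. GOLGA3 encodes a Golgi coiled-coil protein also known as golgin-160. It had 173 tags (148 to 201) and the highest fold of any member, 23.15, which ranked 70 of 1658. Of its 3 peaks on ENST00000204726, that at nt 852 to 1920 had 24 tags at a fold of 5.79. The peaks at nt 2319 to 3642 and nt 3696 to 4931 had 77 and 72 tags, with folds of 23.15 and 16.79. Their densities were nearly equal at 58.2 and 58.3 tags per kb, against 22.5 in the first peak, so the tags of GOLGA3 lay mostly in the pair at higher nt.

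GOLGA4 encodes a golgin of the trans-Golgi network that is recruited through its GRIP domain. It had a single long peak, nt 448 to 4374 of ENST00000356847, with 183 tags (157 to 212) at a fold of 15.63. Per kb of peak, GOLGA4 stood at 46.6 tags (40.1 to 53.9), GOLGA3 at 47.7 (40.8 to 55.3) and GOLGB1 at 50.1 (45.5 to 55.0). These 3 intervals overlap, so their densities cannot be told apart at this depth.

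GOLGA2 and GOLGA1 were lower. GOLGA2 encodes GM130, a cis-Golgi matrix protein that binds the tether USO1. Its peaks at nt 222 to 1713 and nt 2078 to 2871 of ENST00000421699 had 39 and 23 tags, with folds of 8.68 and 9.84. GOLGA1, another GRIP domain golgin, had 19 tags in 1 peak at nt 500 to 1025 of ENST00000373555, at a fold of 10.42. GOLGA2 had 27.1 tags per kb (20.8 to 34.8), an interval below that of GOLGB1. The interval of GOLGA1, 21.7 to 56.4, was too wide to place it.

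The remaining golgins, GOLGA8A and GOLGA8B, are near-identical copies that lie close together on chromosome 15, with 5 other entries of the RefSeq table between them. Each had 1 peak of 894 nt with 19 tags, its summit at base 304 of the peak, a score of 44.67 and a fold of 5.21. The peak lay at nt 355 to 1248 of ENST00000359187 for GOLGA8A and at nt 388 to 1281 of ENST00000342314 for GOLGA8B. The second listed transcript of each gene, ENST00000432566 and ENST00000438958, repeated the same values. Equal length, summit, tags, score and fold mean that these values do not separate the copies. A shared origin of the reads was not tested. The nt positions differed, and so did the region labels on the chosen transcripts, coding for GOLGA8A and 3' untranslated for GOLGA8B. No other pair of golgin symbols shared a peak, also when lengths were allowed to differ by 5% and tags by 10%, and no member shared a peak of equal length, summit and tags with a gene outside the set. In the whole list, 30 symbols (1.81%) shared a peak of equal length, summit, tags and fold with another symbol.

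**Figure D3:**
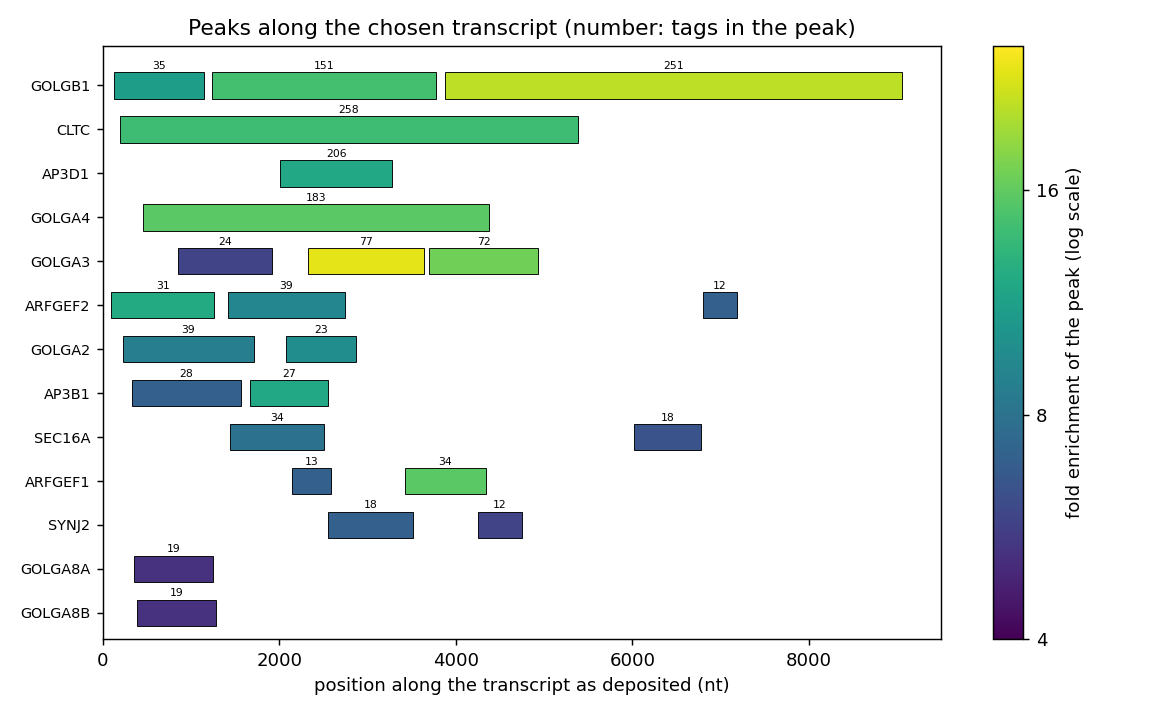
Peaks of the 8 genes with several peaks and of 5 single-peak genes named in the text, drawn by position along the chosen transcript in nt as deposited; colour gives the fold on a log scale and the number above each bar the tags. GOLGB1 is covered almost without a gap, SEC16A and ARFGEF2 have a peak far from the others, and the GOLGA8A and GOLGA8B peaks have the same length and tags.

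At the ER exit, 3 of the 4 listed genes had between 52 and 63 tags. SEC23IP, a phospholipase-like protein that binds the COPII subunit SEC23, had 63 tags (48.4 to 80.6) at nt 852 to 2424 of ENST00000369075, with a fold of 11.58. SEC23A, the inner coat subunit itself, had 61 tags at nt 397 to 2478 of ENST00000307712, but a fold of only 4.39, which ranked 1560 of 1658. SEC16A, the scaffold of ER exit sites, had 34 tags at nt 1441 to 2504 and 18 at nt 6022 to 6780 of ENST00000313050, 3517 nt apart, with folds of 7.95 and 6.37. The cargo-binding coat subunit SEC24A had 13 tags at nt 3955 to 4467 of ENST00000398844 and a fold of 6.95. Per kb, SEC23IP stood at 40.1 tags (30.8 to 51.2) and SEC23A at 29.3 (22.4 to 37.6), with overlapping intervals.

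SEC63 and COPA stood close to SEC23A. SEC63, an ER membrane protein that works with the translocon during protein import, had 57 tags at nt 222 to 2635 of ENST00000369002, with a fold of 4.83. COPA, the alpha subunit of COPI, also had 57 tags, at nt 1538 to 3203 of ENST00000241704, with a fold of 5.14. Per kb of peak these were 23.6 and 34.2 tags. SEC23A, SEC63 and COPA thus had more tags than the median of all genes and low folds, but their folds lie off the steps described below and may not be comparable with most of the list.

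Among the Arf exchange factors, ARFGEF1 joined a tag count near the median of all genes with a high fold. ARFGEF1 and ARFGEF2 encode BIG1 and BIG2, which activate Arf at the trans-Golgi network and endosomes, and GBF1 acts at the cis-Golgi. ARFGEF1 had 47 tags (34.5 to 62.5) and a fold of 15.63, reached in a peak of 34 tags at nt 3427 to 4338 of ENST00000262215, while a further peak at nt 2139 to 2586 had 13 tags and a fold of 6.95. ARFGEF2 had 82 tags (65.2 to 102) in 3 peaks of ENST00000371917. Those at nt 95 to 1257 and nt 1414 to 2740 had 31 and 39 tags with folds of 12.16 and 9.26, and the last, 4062 nt away at nt 6803 to 7187, had 12 tags and a fold of 6.95. GBF1 had 29 tags at nt 1594 to 2682 of ENST00000369983 and a fold of 8.10. Their densities, 34.6, 28.5 and 26.6 tags per kb, had overlapping intervals.

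CLTC and AP3D1 led the clathrin and adaptor group. CLTC, the clathrin heavy chain, had 258 tags (227 to 291) in 1 peak from nt 189 to 5380 of ENST00000269122, the longest peak of any member at 5192 nt, with a fold of 14.19. AP3D1, the delta subunit of the AP3 adaptor that sorts cargo from endosomes to lysosomes and related organelles, had 206 tags (179 to 236) in only 1270 nt, at nt 2012 to 3281 of ENST00000355272, with a fold of 11.96. Its density of 162 tags per kb (141 to 186) ranked 10 of 1658 genes. The next members were GOLGB1 at 50.1 and CLTC at 49.7 (43.8 to 56.1), so the AP3D1 interval lay above those of all other members. The other listed transcript of AP3D1, ENST00000345016, gave 176 tags over 1084 nt, again 162 tags per kb, with a fold of 16.68.

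AP3B1, the beta subunit of the same adaptor, had 28 tags at nt 331 to 1562 and 27 at nt 1669 to 2554 of ENST00000255194, with folds of 6.95 and 12. The interval of its density, 19.6 to 33.8 tags per kb, lay below that of AP3D1. AP1B1, the beta subunit of the adaptor of the trans-Golgi network, had 32 tags and a fold of 4.72 at nt 6 to 847 of ENST00000317368. SYNJ2, a synaptojanin, which is an inositol phosphatase that helps to strip the clathrin coat, had 18 and 12 tags at nt 2549 to 3517 and nt 4254 to 4744 of ENST00000355585, with folds of 6.95 and 5.79. PICALM, which helps to assemble clathrin at the plasma membrane, had 17 tags and a fold of 7.64 at nt 111 to 606 of ENST00000356360. The clathrin light chain genes CLTA and CLTB had no peak.

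The tethers were uniformly low in tags, 12 to 23 per gene, with folds from 3.98 to 9.26. The exocyst docks secretory vesicles at the plasma membrane. Of its subunits, EXOC7 had 23 tags (14.6 to 34.5) at nt 1496 to 1967 of ENST00000332065, with a fold of 3.98, the lowest of any member. EXOC8 had 20 tags at nt 1387 to 2013 of ENST00000366645, with a fold of 9.26, the highest of the group. EXOC5 had 18 tags (fold 5.69, nt 2985 to 3600 of ENST00000413566), EXOC2 had 15 (fold 8.46, nt 1744 to 2189 of ENST00000230449) and EXOC4 had 12 (fold 4.05, nt 1308 to 1907 of ENST00000253861). All 5 Poisson intervals overlap, so no order of tags among the exocyst genes can be given.

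Each of the other tethering complexes was represented by 1 gene. TRAPPC10, a subunit of the TRAPPII complex at the Golgi, had 15 tags at nt 223 to 741 of ENST00000291574 and a fold of 6.37. COG5, of the complex that tethers retrograde vesicles within the Golgi, had 13 tags at nt 721 to 1222 of ENST00000297135 and a fold of 5.79. VPS53, a subunit of the GARP complex for carriers returning from endosomes, had 15 tags at nt 7590 to 8293 of ENST00000437048 and a fold of 4.63. Its other listed transcript, ENST00000291074, had a separate peak of 14 tags at nt 129 to 744 with a fold of 6.37, and whether reads are shared between them was not tested.

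Of the sorting nexin, retromer, HOPS and syntaxin symbols of the rule, few were listed, with 15 to 29 tags each. SNX27, a sorting nexin that returns receptors from endosomes to the cell surface with retromer, had 21 tags at nt 1122 to 1868 of ENST00000458013 and a fold of 9.84. SNX1, a membrane-bending partner of retromer, had 29 tags at nt 196 to 964 of ENST00000560829 and a fold of 5.71. None of the 6 retromer-related VPS26, VPS29 and VPS35 symbols was listed. VPS41, of the HOPS complex that tethers membranes to lysosomes, had 16 tags at nt 664 to 1369 of ENST00000310301 and a fold of 6.37. The syntaxins STX16, which acts at the trans-Golgi network, and STX3, which acts in delivery to the apical plasma membrane, had 16 and 15 tags with folds of 5.21 and 4.05, at nt 456 to 1228 of ENST00000371132 and nt 546 to 1289 of ENST00000337979.

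The symbol rule also brought in genes with other roles. VPS13A, VPS13B and VPS13C encode very long proteins that carry lipids between membranes at contact sites. They had 13, 17 and 13 tags with folds of 5.21, 8.10 and 5.21, each in 1 short peak, at nt 222 to 754 of ENST00000357409, nt 4544 to 5214 of ENST00000357162 and nt 3989 to 4560 of ENST00000249837. SYNJ2BP, a protein of the mitochondrial outer membrane that binds SYNJ2, had 15 tags at nt 2401 to 3145 of ENST00000256366 and a fold of 5.21. Among the symbols without a peak, VPS72 belongs to a chromatin complex.

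The 5 members with the most tags had folds of 11.96 to 23.15. SEC23A, SEC63 and COPA, with 57 to 61 tags, had folds of only 4.39 to 5.14. The fold took stepwise values. In 37 of the 50 member peaks (74.0%) the authors' fold equalled a multiple of 0.5788, with a tolerance of 0.0051, against 70.1% of all 2440 peaks. All 12 golgin peaks lay on these multiples: the fold of 23.15 of GOLGA3 is 40 steps, 20.84 of GOLGB1 is 36 and 5.21 of GOLGA8A is 9. All 6 peaks of the Arf exchange factors did too. COPA, SEC63, SEC23A, CLTC, AP3D1, AP1B1, PICALM, SNX1, EXOC2, EXOC5 and EXOC7 had no peak on the multiples. Whether a fold on the steps has a denominator held at a minimum was not tested. Folds on and off the steps may therefore not be measured alike, and COPA, with 57 tags and a fold of 5.14, cannot be set against ARFGEF1, with 47 tags and a fold of 15.63, as if both were ratios to a measured background.

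**Figure D4:**
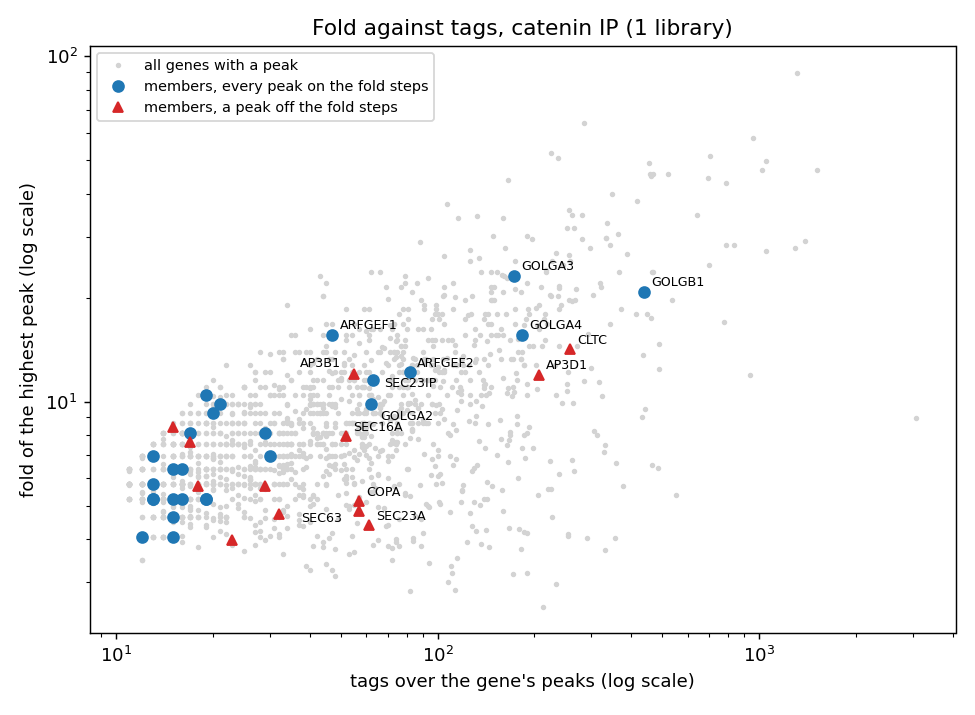
The authors' fold of the highest peak against tags for all 1658 genes (grey) and the 39 members, both axes on log scales; blue circles are members with every peak on the multiples of 0.5788 and red triangles the other 13. The circles reach from 12 to 437 tags, and COPA, SEC63 and SEC23A, all triangles, lie at 57 to 61 tags with folds of 4.39 to 5.14.

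The listed transcripts of a gene repeated most of its peaks. The 39 genes had 127 peaks on 101 transcripts, and 27 genes had several transcripts. Tags differed most between transcripts of GOLGB1 (21 to 437), GOLGA4 (11 to 183), CLTC (32 to 258) and GOLGA3 (24 to 173), where some transcripts were listed with only part of the peaks or with shorter ones. For GOLGB1 the fold of the highest peak ran from 8.68 to 20.84 over 5 transcripts.

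The authors' region labels were not stable between transcripts. Of 30 member peaks listed with the same length, summit and tags on several transcripts, 19 (63.3%) carried differing labels, against 300 of 1267 (23.7%) in all other genes. The 1324 nt peak of GOLGA3 with 77 tags was labelled 3' untranslated on 2 transcripts and coding on 1. Its peak at the highest nt was labelled 3' untranslated and coding on ENST00000204726, and 5' untranslated and coding, as a shorter peak at nt 3847 to 4796, on ENST00000456883. On the chosen transcripts, 22 of 50 member peaks were labelled coding alone (44.0%), 16 as 3' untranslated alone (32.0%) and 9 as both. Over all 2440 peaks these were 39.7%, 28.2% and 19.7%. The AP1B1 peak labelled 3' untranslated began at nt 6. The labels were therefore not used to place peaks in coding or untranslated sequence.

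Trafficking genes outside the symbol rule were described with 6 lists of 153 genes, of which 42 (27.5%) had a peak, against 8.11% of all protein-coding symbols. Their medians were 53.5 tags and a fold of 8.10, against 41 tags and 7.56 over all genes with a peak. The lists were written by hand with earlier results known, so these shares are a description. The share was highest for Golgi structure and motors, 11 of 22. These were led by GOLM1, a Golgi membrane protein (120 tags, fold 5.75), TGOLN2, the cycling trans-Golgi protein TGN46 (116 tags, fold 10.68), and, with 93 tags each, ACBD3, a Golgi adaptor (fold 22.81), and TRIP11, the golgin GMAP-210 (fold 10.42). For sorting in endosomes and lysosomes 12 of 31 had a peak, led by the endosome tether EEA1 (183 tags, fold 13.89), the mannose 6-phosphate receptor IGF2R (146 tags in 4 peaks, fold 21.42) and RABEP1 (103 tags, fold 9.52), an effector of early endosome fusion.

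For endocytosis and clathrin 9 of 31 had a peak, led by CLINT1, a clathrin-binding epsin relative (73 tags, fold 5.68), ITSN2, a scaffold of endocytic sites (61 tags, fold 15.05), and EPS15 (53 tags, fold 11.58). The AP2 alpha genes AP2A1 and AP2A2, which the symbol rule misses, were without a peak. Of 27 ER to Golgi genes 5 had one, led by SAR1A, the GTPase that starts COPII assembly (98 tags, fold 6.52), the tether USO1 (58 tags, fold 7.53) and the cargo receptor LMAN1 (57 tags, fold 14.8). Of 20 further Arf regulators 4 had one, led by the Arf GTPase-activating genes ASAP1 (174 tags in 3 peaks, fold 25.47) and ASAP2 (75 tags, fold 13.89), and PSD3, an exchange factor (45 tags, fold 8.10). Of 22 SNARE machinery genes only NSF, the ATPase that takes SNARE bundles apart, had one (25 tags, fold 9.35).

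WASHC2A and WASHC2C, near-identical copies of a WASH complex subunit on endosomes, differ from the GOLGA8 pair. Both had 54 tags in a pair of peaks, but the peaks held 38 and 16 tags in WASHC2A and 37 and 17 in WASHC2C, and their highest folds were 12.16 and 12.73. The list thus gave these copies like but not equal values. Whether reads are shared between them was not tested.

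The annotation that the authors joined to the transcripts placed 25 of the 39 members in the Golgi apparatus, against 172 of all 1658 genes, and 34 in vesicle-mediated transport, against 227. It placed 7 in the endoplasmic reticulum, against 127 of all genes, and 8 in the endosome, against 80. The counts over all genes include the members. Members were chosen by trafficking symbols, so frequent terms of this kind follow from the rule and are no result. In the KEGG endocytosis pathway 45 genes had a peak, and 5 of them were members (ARFGEF1, ARFGEF2, CLTC, GBF1 and SNX1). Members made up 4 of the 9 listed genes of the lysosome pathway, AP1B1, AP3B1, AP3D1 and CLTC, and both listed genes of the SNARE pathway. They were 3 of 23 in protein processing in the endoplasmic reticulum, 1 of 28 in tight junction and 0 of 8 in phagosome. Of all 1658 genes 39 were members, and their choice by symbol bears on these counts too.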

How the data were processed

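The file used was made for the IP library. Tags are whole-number counts per peak, as deposited by the authors. Fold enrichment is a ratio that the authors' peak caller gave, per the file headers. A score whose column name was lost was deposited by the authors with a minimum of 30 and used only to filter. The submitters' processing notes name the build hg18, while the transcript identifiers look later, so the build is uncertain. The aligner, peak caller and background library were not given in the sources used here. No genome coordinates are printed. The library's depth is unknown.

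Symbols were matched to the rule, the transcript with the most summed tags was kept (ties: lowest identifier), and tags, fold of the highest peak and tags per kb of peak were computed with Python 3.11.15, pandas 2.3.3 and scipy 1.17.1. All 39 members are named, as the rule for named genes asked for 40 or fewer, and 3 genes per further list (4 where tags tied). Members and lists were chosen with earlier results of these data known. RefSeq (GRCh38.p14) served for names and denominators. Transcript selection was tested on simulated data of 300 genes, and 300 were recovered. Alternatives were fold and score minimums, other transcripts, other denominators, looser sharing and merged copies.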

Additional observations from a re-analysis of the deposited data

How the results depend on the processing

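A stricter score changed the summaries most, since fewer genes remain by construction. With a score of at least 50, 22 of the 39 members were left (56.4%, against 71.5% of all genes), which made up 9.09% of the protein-coding symbols of the rule, with medians of 34 tags and a fold of 9.84. With a score of at least 100, 9 members were left (23.1%, against 40.4% of all genes; 3.72% of the symbols), with a median of 149 tags, a fold of 14.19 and 46.6 tags per kb: GOLGB1, CLTC, AP3D1, GOLGA4, GOLGA3, SEC23IP, ARFGEF2, GOLGA2 and ARFGEF1. At these cuts 1186 and 670 of all genes were left. Members were lost faster than all genes, so the excess of the rule's share over that of the whole list shrank. The share of all protein-coding symbols at these cuts was not computed. The 9.09% and 3.72% therefore cannot be set against the 8.11% of the uncut list, and no excess is shown at these cuts. The listed share, 16.1%, was 9.47% with all gene types in the denominator, where that of the whole table was 2.74%. A fold of at least 4 was run for the listed share only and left it at 16.1% (EXOC7 then counts through another transcript). The other settings, each run for the results it bears on, moved the medians and the count of GOLGA symbols sharing a peak (2) little. They were another transcript, each transcript alone, merged copies, the densest peak, a tag-weighted fold and looser sharing. Using only members with every peak on the fold steps was chosen after seeing the data and left the median fold at 6.95. No paired analysis was possible because the IP and the input are single libraries. Tags limit most statements: 18 of the 39 members had fewer than 20. At least 20 tags were reached by 53.8% of members and by 75.3% of all genes with a peak.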
